A study of Arabidopsis thaliana with 163 samples.

Results

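The H3K4me3 landscape of *Arabidopsis* seedlings was described from the domain list that the study deposited for this mark. All 15625 domains of the list lie on the 5 nuclear chromosomes and all were taken, out of 114433 nuclear domains in the lists of histone marks used from the series. The tested material was Col-0 wild type, grown under long days for 10 days and left untreated. Whole seedlings were used, so every cell type of the seedling contributed to each value, and fewer cells with the mark and less of it per cell cannot be told apart. Chromatin was immunoprecipitated by PHILO ChIP-seq, a plate-based protocol for many small samples. The list was made from 3 merged H3K4me3 libraries set against 1 IgG library of the same genotype, with no tag, transgene or mutation. The comparisons below also use the H3K36me3 and H3K27me3 lists (3 merged Col-0 libraries each), 5 single-library H3K9ac lists (3 PHILO and 2 regular ChIP-seq libraries), lists of H3K9ac gain or loss in Col-0 after 2 h in gaseous methyl jasmonate (JA below), and summits of the transcription factor MYC2 in *myc2 MYC2:MYC2-FLAG* seedlings after the same treatment.

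H3K4me3 is trimethylation of lysine 4 on histone H3. In plants, as in yeast and animals, it is laid down by SET-domain methyltransferases within COMPASS-like complexes, is bound by PHD-finger proteins, is removed by demethylases, and is found on the first nucleosomes of genes that are transcribed or can be. H3K36me3 lies further along transcribed genes, H3K27me3 is the mark of Polycomb repression, and H3K9ac is an acetylation of active promoters and gene starts. The domain list measures the mark only. No RNA level was used, so what a gene is known for below is background and not a reading of its transcription in these seedlings.

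The promoters of a few genes show what lies just before the marked stretch. They are 250 bp long, end at the base before the annotated start, run 5′ to 3′ on the strand of the gene, and were read from the RefSeq copy of the TAIR10 genome. Capitals mark the TATA box with the letters TATAAA, the site II elements, known from promoters of ribosomal protein and cell-cycle genes, in the form TGGGCC or the form TGGGCT, and the telo box with the letters AAACCCTA, each on either strand. *ASPG1*, an aspartic protease gene (chr3:6350833-6351082, minus strand), belonged to the densest domain. *EMB3113*, a ribosomal protein gene (chr2:14302497-14302746, minus), *PAD1*, a proteasome gene (chr3:19030676-19030925, plus), and *AL2*, encoding a PHD-finger reader of H3K4me3 (chr3:3510659-3510908, minus), are dense members of their lists with a site II element.
ASPG1: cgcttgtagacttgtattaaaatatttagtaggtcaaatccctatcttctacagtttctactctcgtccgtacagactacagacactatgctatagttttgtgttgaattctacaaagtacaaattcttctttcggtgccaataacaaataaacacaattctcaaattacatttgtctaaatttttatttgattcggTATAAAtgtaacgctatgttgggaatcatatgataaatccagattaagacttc
EMB3113: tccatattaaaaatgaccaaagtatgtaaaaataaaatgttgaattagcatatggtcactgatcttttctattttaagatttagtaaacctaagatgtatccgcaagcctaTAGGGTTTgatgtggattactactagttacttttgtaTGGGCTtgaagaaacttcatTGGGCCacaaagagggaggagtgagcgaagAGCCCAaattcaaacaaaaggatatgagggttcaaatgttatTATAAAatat
PAD1: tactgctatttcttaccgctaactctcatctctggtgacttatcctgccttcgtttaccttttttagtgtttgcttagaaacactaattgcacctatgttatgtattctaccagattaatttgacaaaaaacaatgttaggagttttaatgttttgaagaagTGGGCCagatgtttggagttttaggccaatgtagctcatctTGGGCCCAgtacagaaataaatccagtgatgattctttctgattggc
AL2: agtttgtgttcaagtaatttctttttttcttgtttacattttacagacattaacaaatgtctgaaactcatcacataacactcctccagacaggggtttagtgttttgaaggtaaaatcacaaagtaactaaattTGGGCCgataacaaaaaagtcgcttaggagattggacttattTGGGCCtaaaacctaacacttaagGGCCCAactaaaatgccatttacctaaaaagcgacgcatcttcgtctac

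The domains covered 17.7 Mb, or 14.8% of the nuclear genome of 119.1 Mb. They held 15324930 H3K4me3 counts and 1323766 IgG counts. The ratio of total H3K4me3 to total IgG reads recovered from the deposited log2 folds was 1.86, and with it the domains held on average 6.21 times the scaled IgG count. Density below is the H3K4me3 count of a domain minus the scaled IgG count, per kb of its width. The largest FDR of the list was 0.00717, and 15355 domains (98.3%) had a log2 fold of at least 1. Because the replicates were merged before calling, no value below has a replicate error unless it comes from the H3K9ac libraries, and intervals cover counting error only. The labels are at odds over the IgG library, whose title names IgG while its antibody field names anti-H3K9ac. All H3K36me3, H3K27me3 and H3K9ac domains with the same limits as an H3K4me3 domain carried the same control count (3152 of 3152 for PHILO H3K9ac replicate 1), so these lists share 1 control.

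H3K4me3 sat at the starts of protein-coding genes and mostly inside them. A gene was called marked when a domain covered any of its first 500 bp. By this rule 16862 of 27444 protein-coding genes (61.4%, 95% Wilson interval 60.9 to 62.0%) were marked and 10582 were not. Each marked gene was counted for the domain covering most of its first 500 bp. By this count 14743 domains held at least 1 marked start, and 882 (5.64%) held none. A held start is thus any part of these 500 bp and not always the first base. Domains with exactly 1 marked start made up 81.8% of the list (12785). Around these, the upstream edge lay at a median of 16 bp inside the gene, with 25 to 75% between 60 bp before and 101 bp after the start. The edge was within 200 bp of the annotated start in 86.9% of them, and only 3.36% began more than 200 bp upstream. The first base of the gene itself lay inside the domain in 44.8%. These domains were also split by density into quintiles (each 1 of 5 equal groups). From the sparsest to the densest, the median edge lay at 95, -1, -20, -8 and 27 bp from the start, negative values being upstream. In the same order 73.4, 84.0, 91.6, 93.7 and 91.7% of the edges were within 200 bp. Limits of domains are multiples of 200 bp, so positions are no finer than that.

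**Figure D1:**
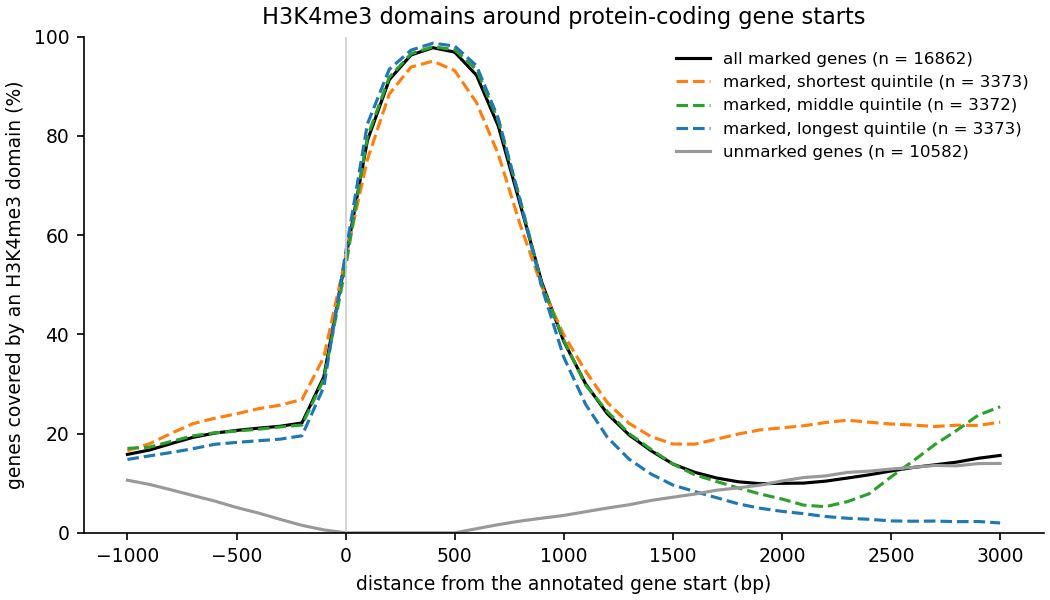
Share of protein-coding genes covered by an H3K4me3 domain (vertical axis, %) against distance from the annotated start (horizontal axis, bp), for all marked genes, the shortest, middle and longest quintile of marked genes by length, and unmarked genes. The marked curves peak at 97.8% for all marked genes at 400 bp and come together at 900 bp, while the shortest quintile runs lower before that, with 76.3% at 700 bp against 83.5% for the longest. The definition of marked genes sets the plateau of the first 500 bp and the 0 of unmarked genes there.

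The downstream edge followed distance from the start and hardly the length of the gene. Its median was 915 bp inside the gene (25 to 75%: 757 to 1173 bp). From the shortest to the longest quintile of these genes by length, it was 867, 917, 935, 946 and 910 bp. The share of the gene covered therefore ran from 63.3% at the shortest quintile to 17.4% at the longest. Spearman's correlation of gene length with domain width was 0.086 over the 12785 domains, as a description, since neighbouring domains share libraries. The domain reached the start codon in 96.3% of these genes and went past the first exon in 80.1%. It ran past the end of the gene in 2.90%.

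Long genes and genes with several exons were marked more often. From the shortest to the longest quintile of all protein-coding genes, 25.9%, 54.4%, 69.9%, 75.7% and 81.3% were marked. Of genes with 1 exon, 46.9% were marked, against 78.4% of genes with 6 or more. Marked genes had a median length of 2440 bp and 5 exons, and unmarked genes of 1444 bp and 2 exons. Density at the marked genes differed less along this axis. Its median was 623 for the shortest quintile of genes and 790 for the longest.

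Neighbouring genes often shared a domain. Domains with 2 marked starts numbered 1824 (11.7%), those with 3 numbered 115, and 19 held 4 or more. In 1329 of the 1824 (72.9%) the pair was divergent, that is, transcribed away from each other, and their starts lay a median of 165 bp apart. Such domains had a median width of 1800 bp, or 900 bp for each start over all domains with 2 starts, against 1000 bp for domains with 1 start. Their median density of 742 was near that of domains with 1 start (786). Seen from the genes, 1561 neighbouring divergent pairs had starts within 500 bp of each other. Both genes were marked in 1013 pairs (64.9%), and in 994 of these by 1 domain. One gene alone was marked in 386 (24.7%), and neither in 162 (10.4%).

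Domains were found along all chromosome arms and were absent from stretches near the centromeres. Each chromosome held 121 to 136 domains per Mb, and between 58.5% (chromosome 2) and 62.8% (chromosome 5) of its protein-coding genes were marked. Of 1188 windows of 100 kb, the median window held 15 domains, and 65 windows held none. The longest stretch without a domain was 1311 kb (chr1:14296201-15607000), with 12 annotated protein-coding genes. On chromosome 2 the longest such stretch (chr2:3057201-3526600, 469 kb) held 101 annotated protein-coding genes. It lies beside the centromere, where the Col-0 chromosome is known to carry a large insertion of mitochondrial DNA. Reads that align equally well to the insertion and to mitochondrial DNA were not followed here, so missing H3K4me3 and unplaced reads cannot be told apart in it.

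Most domains were narrow, and both width and density varied. Width ran between 200 and 9800 bp with a median of 1000 bp and 25 to 75% between 800 and 1400 bp. In 9380 domains (60.0%) it was 800 to 1200 bp. The most frequent width was 800 bp, with 4645 domains (29.7%). Only 274 (1.75%) were 3000 bp or wider. Density had a median of 764 counts per kb, with 25 to 75% between 529 and 926, and ranged over 27.5 to 1484. The IgG background under the domains hardly varied with it, at a median of 74.5 counts per kb. Spearman's correlation of width with density was 0.13 over 15625 domains, as a description, but the relation rose and then fell. Median density was 259 for domains of 200 to 400 bp and 746 at 600 to 800 bp. It was highest at 1000 to 1200 bp, with 838, and 626 above 3000 bp.

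**Figure D2:**
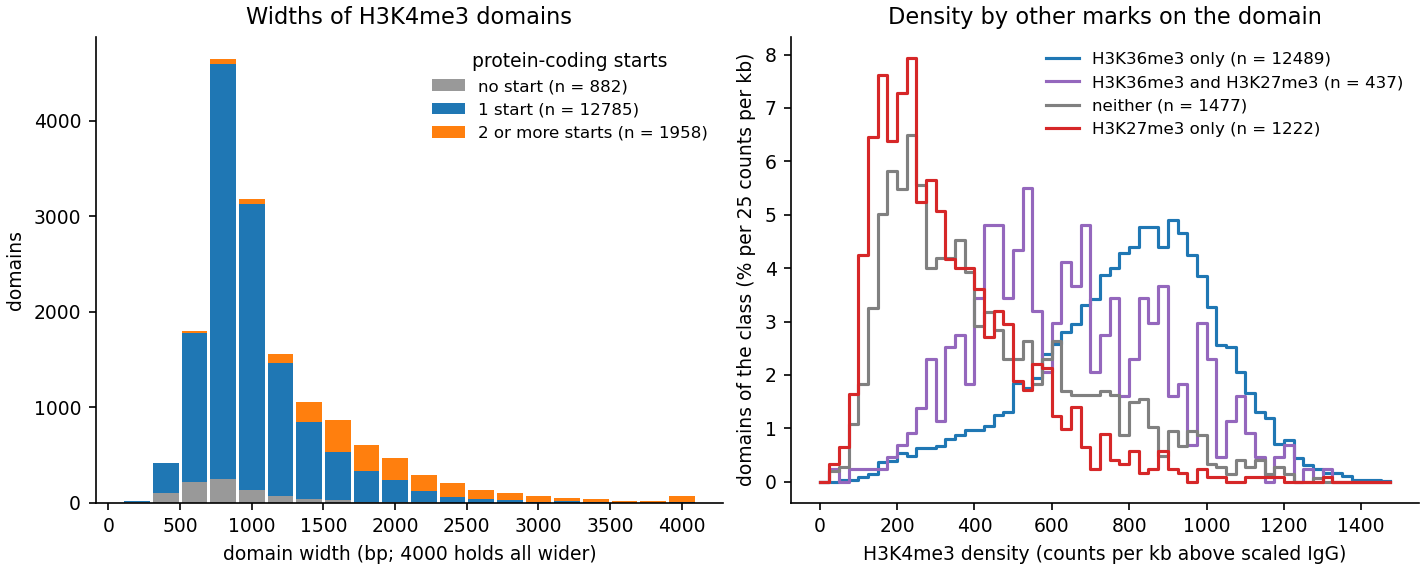
Left, number of H3K4me3 domains (vertical axis) by width in bp (horizontal axis, with all domains from 4000 bp on in the last bar), split by the number of marked protein-coding starts. Right, distribution of density (horizontal axis, counts per kb above scaled IgG, vertical axis, % of the class per 25 counts per kb) for domains that also carry H3K36me3 only, H3K36me3 and H3K27me3, neither, or H3K27me3 only. Domains with more than 1 start make up most of those above 2000 bp, and the class with H3K36me3 only lies highest in density, with a median of 820.

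The densest domains belonged to single genes of varied function. *ASPG1*, whose product is known from guard cells, led with 2893 H3K4me3 and 119 IgG counts over 1800 bp (chr3:6349001-6350800), a density of 1484. *GAE1*, encoding a UDP-glucuronate epimerase that makes a precursor of pectin, had 2248 H3K4me3 and 96 IgG counts over 1400 bp and a density of 1478. *AT4G14620* (a DUF506 protein) had a density of 1473, and *SLD1*, a sphingolipid desaturase gene, 1438. The other 6 of the 10 densest were *PP2CA*, a phosphatase gene that restrains abscisic acid signalling (1429), *PUB26*, a U-box ubiquitin ligase gene (1426), *TTA1* (1405), *AT5G24890* (1404), *HON5*, encoding a high mobility group A protein (1403), and *AT3G03550*, a RING protein gene (1402). All 10 held 1 marked start, carried H3K36me3 and no H3K27me3, and lay under H3K9ac in each of the 5 libraries. These traits are common among dense domains. Of the densest quintile 97.9% carried H3K36me3, 1.92% H3K27me3 and 99.9% H3K9ac in all 5 libraries, and 81.8% of all domains held 1 start.

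The widest domains, in contrast, joined several genes. The widest, of 9800 bp (chr1:10299401-10309200), ran over 9 starts including *PAI3* of tryptophan synthesis and a cluster of *SAUR* genes, small auxin-responsive genes, and was sparse, with 4114 H3K4me3 and 780 IgG counts and a density of 271. The next, of 7200 bp (chr1:5442601-5449800), held 5 starts with *LHCB6*, an antenna protein gene of photosystem II, and had a density of 765. A domain of equal width (chr1:29414001-29421200) began at *AT1G78170*, held 5 starts and had a density of 468. A domain of 6400 bp covered the nitrate transporter gene *NRT2.7* and 2 neighbours (757). *AIRP2* and the antenna gene *LHCB4.1* shared one of 6200 bp (626). One of 6000 bp covered the histone genes *AT4G40030* and *AT4G40040* with 3 more starts (659). The 4 others, of 5800 bp, lay at *EMB1968* (866), *RLP57* (612), *AT2G45720* (435), and *UGT85A2* with *UGT85A5*, a pair of glucosyltransferase genes (330). This last domain alone among the 10 lacked H3K36me3.

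At the other end were domains barely above IgG, and the 5 with the lowest log2 folds among those with a marked start are given. *AT5G07175* had 194 H3K4me3 and 87 IgG counts over 1000 bp, a log2 fold of 0.26. *AT5G63710* and *AT1G61420*, both encoding receptor-like kinases, had log2 folds of 0.29 each. *BGLU18*, encoding a beta-glucosidase known from endoplasmic reticulum bodies, had 323 H3K4me3 and 139 IgG counts (0.32), and *AT1G61360*, a lectin kinase gene, had 0.40. Of these 5, *AT5G63710* and *BGLU18* lay under H3K9ac in none of the 5 libraries, *AT5G07175* in 3, and the others in all.

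Dense and sparse domains differed in the marks beside them. Over all domains, 82.7% touched an H3K36me3 domain and 10.6% an H3K27me3 domain. When the list was split into quintiles of 3125 domains by density, the H3K36me3 share was 39.3, 84.5, 94.7, 97.2 and 97.9% from the sparsest to the densest. The H3K27me3 share ran the opposite way, at 34.2, 11.3, 3.23, 2.43 and 1.92%. Domains with neither mark made up 29.9% of the sparsest quintile and 1.82% of the densest. The IgG background was the same at both ends, 73.3 counts per kb. The median density of the densest quintile was 1047 and that of the sparsest 288, a ratio of 3.64. Whether repeated positions were removed is not given in the sources used here, and no domain held more than 0.806 counts per position and strand. With counts raised for positions already taken the ratio was 4.90, and without subtraction of IgG it was 2.82.

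**Figure D3:**
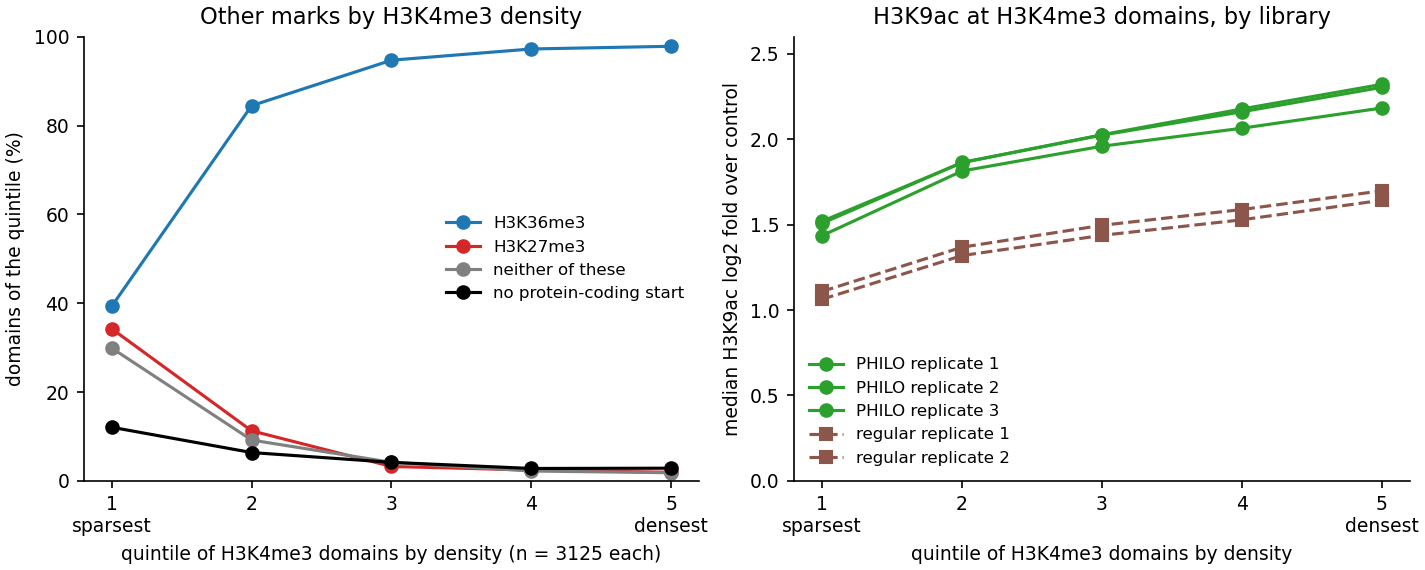
Left, share of H3K4me3 domains (vertical axis, %) that touch H3K36me3, H3K27me3 or neither, or hold no protein-coding start, by quintile of H3K4me3 density (horizontal axis, 3125 domains each). Right, median deposited log2 fold of H3K9ac over control at the same quintiles (vertical axis), with 1 line per H3K9ac library. H3K36me3 is on 97.9% of the densest and 39.3% of the sparsest quintile, and each of the 5 H3K9ac lines climbs with H3K4me3 density.

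By combination of marks, 12489 domains (79.9%) carried H3K36me3 only, with a median density of 820. Both marks were on 437 (2.80%), which were wider, at a median of 1600 bp, and had a density of 627. H3K27me3 only was on 1222 (7.82%), with a density of 286, and 78.7% of these fell in the sparsest quintile, where 20.0% of all domains lie. Neither was on 1477 (9.45%, density 362). Seen from the other lists, 11669 of 11816 H3K36me3 domains (98.8%) touched an H3K4me3 domain, but only 1565 of 6054 H3K27me3 domains (25.9%) did. In whole seedlings, 2 marks on 1 domain may come from the same or from different cells, which cannot be told apart.

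Counted over genes the picture was the same. H3K36me3 lay on 84.1% of marked and 7.46% of unmarked genes, against 54.6% of all protein-coding genes. H3K27me3 lay at the first 500 bp of 9.06% of marked and 54.3% of unmarked genes, against 26.5% of all. Neither lay on 8.90% of marked and 39.1% of unmarked genes. Turned round, 94.7% of genes with H3K36me3 were marked by H3K4me3, as were 21.0% of those with H3K27me3 and 26.6% of those with neither. Of the 789 unmarked genes with H3K36me3, 342 (43.3%) did have an H3K4me3 domain further along the gene. *NPQ4*, which encodes the PsbS protein of photoprotection, is one such case. A domain with a density of 993 began 1380 bp inside its annotated limits.

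H3K9ac, the only mark with a list per library, covered nearly all H3K4me3 domains. The share was 97.4, 96.3 and 96.4% in the PHILO libraries, against 94.1 and 94.0% in the regular ChIP-seq libraries. The means were 96.7 ± 0.60% (SD, n = 3) for PHILO and 94.1 ± 0.081% (SD, n = 2) for regular ChIP-seq, and the groups did not overlap. The difference of 2.63 percentage points had p = 0.1 in the exact permutation test (two-sided, 10 splits), the smallest p that this design allows. With H3K9ac domains limited to a log2 fold of at least 1, the difference was 10.6 percentage points, with the same p of 0.1 by exact permutation. The regular libraries carried the same control counts, from an IgG library whose title names PHILO. Protocol and match of the control therefore cannot be told apart. The labels do not say whether replicates came from separate cultures, so these tests measure the spread between libraries only. The PHILO lists also held more domains, 14678 to 14969, against 14046 and 14134.

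In each library, the H3K9ac log2 fold over control was higher at dense than at sparse H3K4me3 domains. Its median at the densest and sparsest quintile was 2.18 and 1.44, 2.30 and 1.51, and 2.32 and 1.52 in PHILO libraries 1 to 3. In regular ChIP-seq libraries 1 and 2 it was 1.64 and 1.06, and 1.70 and 1.11. The difference averaged 0.70 ± 0.11 (SD, n = 5 libraries) and was positive in 5 of 5, with p = 0.0625 in the exact sign-flip permutation test (two-sided, 32 patterns), again the smallest possible. The control shared with the H3K4me3 list stands on both sides of this relation, and only domains that touch an H3K9ac domain enter it. Over all libraries, 14491 domains (92.7%) touched H3K9ac in all 5 lists. Only 331 (2.12%) did in none, and these were narrow (median 600 bp) and sparse (density 208), with H3K27me3 on 29.0%.

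After 2 h of JA, H3K9ac rose at 22.8% of the H3K4me3 domains and fell at 17.1%, by the authors' calls on merged libraries. These calls describe H3K9ac and not H3K4me3, whose own JA libraries were not analysed here. Gain was at 22.3, 25.5, 25.1, 21.1 and 20.0% of the quintiles from the sparsest to the densest, and loss at 17.4, 18.5, 16.3, 16.4 and 16.9%. Both therefore stayed within a few percentage points over the whole range of H3K4me3 density in the time course. In the larger set of samples gain ranged wider, and was at 13.5% of all domains and at 14.7, 17.3, 15.2, 11.6 and 8.64% of the quintiles in the same order. Most regions of H3K9ac gain lay on H3K4me3 domains, 3201 of 3504 (91.4%), as did 2272 of 2550 regions of loss (89.1%), against 94.2 to 96.3% of all H3K9ac domains in the single libraries.

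Summits of MYC2, the transcription factor that starts the JA response, were no denser in H3K4me3 domains than in the genome. Of 3464 summits, 487 (14.1%) lay in the domains, which cover 14.8% of it, or 27.5 per Mb of domain and 29.1 per Mb of genome. By width the rates differed. Summits numbered 17.8 (3 summits) per Mb of domains 200 to 400 bp wide, 11.0 at 600 to 800 bp, 22.6 at 1000 to 1200 bp, 34.5 at 1400 to 2000 bp, 53.7 at 2200 to 3000 bp and 52.2 (41 summits) above 3000 bp. A MYC2 summit was on 2.98% of all domains and on 17.3% of the 202 widest. Of domains above 3000 bp 80.7% held 2 or more starts, against 1.13% of those of 600 to 800 bp, and the part of this in the rates was not tested.

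What the marked genes do was read from 21 lists of gene families and pathways, each given beside the 61.4% of all protein-coding genes that were marked. The lists were not matched for gene length, with which the share of marked genes rose. Of the marked genes 20.0% are by construction in the densest and 20.0% in the sparsest quintile of marked genes (density above 953 and below 491). The median density of all marked genes was 763 and their median domain width 1000 bp.

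Genes for growth functions used by every cell were nearly all marked. Of ribosomal protein genes 257 of 285 (90.2%) were marked, with a median density of 828, and 5.4% of those were in the sparsest quintile. *AT2G43030*, for a ribosomal protein L3, was the densest of them at 1325 and *AT5G15520*, for an S19e protein, the sparsest at 239. Translation factors followed with 74 of 82 (90.2%, density 856), from *EIF3G1* at 1304 to *AT2G36885* at 260. Of proteasome genes 29 of 30 (96.7%, density 825) were marked and none of these was in the sparsest quintile. The regulatory subunit gene *AT4G24820* had 1153 and *PAC1*, of the core particle, 544. Of RNA polymerase II genes 14 of 15 (93.3%, density 739) were marked, with *NRPB8B* at 917 and *NRPB7* at 380. The unmarked members with the lowest locus numbers were *AT1G12960* and *AT2G18720*, both with H3K27me3, *AT4G08140*, with neither other mark, and *NRPB9A*, with H3K36me3.

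Photosynthesis genes were marked over wider domains than other genes. Of the 50 genes for photosystem proteins, antenna proteins and the Rubisco small subunit, 49 (98.0%) were marked, with a median density of 850 and a median width of 2000 bp. The 32 of them that had a domain to themselves still had a median width of 1800 bp, against 1000 bp for all domains with 1 start. Of these 32 domains, 22 ran past the end of the gene, against 2.90% of all domains with 1 start and 12.9% of those at the shortest quintile of genes. The photosynthesis genes are short, with a median length of 1442 bp. *PSBY*, of photosystem II, was densest at 1282, and *LHCB5* (1215) and *LHCA3* (1168) came next. *CAB1*, *CAB2* and *CAB3*, near-identical antenna genes whose reads may be split between copies, had 992, 611 and 545. *LHCB4.3* was the sparsest at 306 and carried H3K27me3 but no H3K36me3, while *NPQ4* was the unmarked one by the rule of the first 500 bp. Ribosomal protein and proteasome genes were marked at 90.2 and 96.7% too, so the marked share of photosynthesis genes is no check of leaf tissue.

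Of the 21 histone genes in the list, 19 (90.5%) were also marked, but at a lower median density of 681 and with a median width of 2000 bp. The list was drawn by name and lacks *AT4G40030* and *AT4G40040*, named above. Most shared their domain, and the 5 with a domain of their own had a median width of 1000 bp. *HTA13*, encoding a histone H2A, had the densest at 1064. The genes of the variant H2A.Z were spread widely. *HTA9* had 919, *HTA11* was the sparsest of the list with 184 in a domain of 400 bp, and *HTA8* was unmarked but carried H3K36me3.

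Of the genes that write, erase and read the mark, all but *MEE27* carried it themselves. Of the methyltransferase complex, 10 of 10 members were marked (median density 887). These genes are long, with a median of 6847 bp, and 81.3% of the longest quintile of all protein-coding genes were marked. Among the trithorax-like enzymes, *ATX2* had 1174 and *ATX1* 632, *SDG16* had 911, *SDG29* 779 and *SDG14* 698. *SDG2*, encoding the enzyme behind most H3K4me3 in *Arabidopsis*, had 895 and *SDG25* 793. Of the subunits, *RBL* had 1050 in a domain of 3000 bp shared with *PSBTN*, *TRO* 1017 and *WDR5a* 879. All 10 carried H3K36me3 and no H3K27me3.

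Of the demethylases, 5 of 6 (83.3%) were marked. Their genes had a median length of 4114 bp, and 81.3% of the longest quintile of all protein-coding genes were marked. *LDL1* had 1103, *FLD* 1070, *LDL2* 843, *JMJ14* 735 and *JMJ18* 704. *MEE27*, a JmjC demethylase gene, had no H3K4me3 domain, and neither H3K36me3 nor H3K27me3. All 11 readers were marked (median density 872). The Alfin-like genes *AL2*, *AL3*, *AL7*, *AL6*, *AL4*, *AL1* and *AL5* had 1164, 1132, 1040, 988, 917, 872 and 511 in that order. *EBS*, which delays flowering, had 815 and its relative *SHL1* 537 over 2000 bp. *ING1* and *ING2* had 679 and 647.

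**Figure D4:**
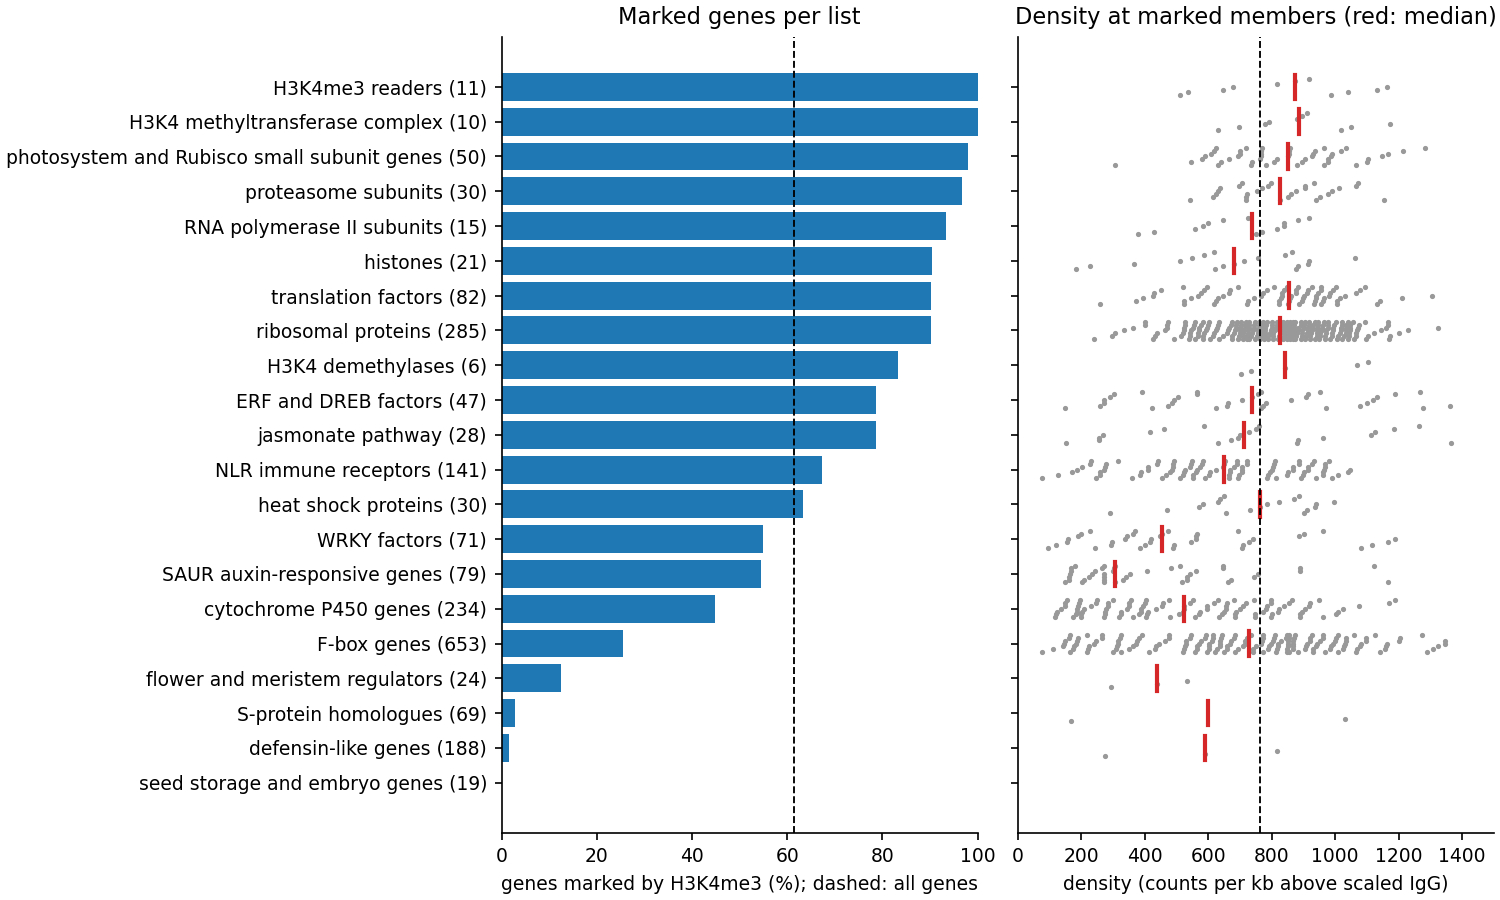
Left, share of genes marked by H3K4me3 (horizontal axis, %) in each of 21 lists (rows, number of genes in brackets), with the 61.4% of all protein-coding genes as a dashed line. Right, density (horizontal axis, counts per kb above scaled IgG) at each marked member (grey points) with the median of the list (red) and of all marked genes (763, dashed). Lists of growth and of H3K4 functions lie above the dashed line at left, and WRKY, SAUR and cytochrome P450 genes lie left of it at right.

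Inducible families were marked at shares nearer to that of all genes, and several of them held many sparse members. In the jasmonate pathway 22 of 28 genes (78.6%) were marked, with 27.3% of these in the densest and 27.3% in the sparsest quintile. The receptor gene *COI1* had 1364, and the genes of the factors *MYC3*, *MYC2* and *MYC4* had 1265, 1187 and 879. The biosynthesis gene *AOS* had 1126 and *AOC4* 962, while *AOC2*, *AOC1* and *AOC3*, near-identical neighbours in 1 cluster, had 694, 268 and 256. Among the JAZ repressor genes, *TIFY10B* had 1113, *JAZ6* 762, *JAZ11* 749, *JAZ3* 728, *JAZ12* 672, *JAZ1* 461 over 4000 bp, *TIFY7* 416 over 2000 bp and *JAZ10* 151. *JAZ5* was 1 of the 6 unmarked genes of the pathway list, and the others are not named here. *JAZ10* carried H3K27me3 and no H3K36me3.

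WRKY transcription factor genes were marked in 39 of 71 cases (54.9%) and sparsely so, with a median density of 456 and 56.4% of them in the sparsest quintile. *WRKY7* (1190) and *WRKY60* (94.8) were the extremes, and of the 32 unmarked, *WRKY61* among them, 22 carried H3K27me3. Of the 47 ERF and DREB genes in the list, 37 (78.7%, density 739) were marked, from *RAP2.4* (1361, over 2000 bp) to *ERF12* (150), with *ERF14* unmarked. The list was drawn by name, so any genes of the family named otherwise are not counted. Of the SAUR genes 43 of 79 (54.4%) were marked by 35 domains, at the lowest median density of the larger lists, 305, and 62.8% were in the sparsest quintile. *AT4G38860* stood out with 1166, and *SAUR22* had 149. Heat shock protein genes had 19 of 30 marked (63.3%, density 763), and 2 of these 19 were in the sparsest quintile. *SHD*, encoding an HSP90 of the endoplasmic reticulum, had 998, *HSP70* 292, and *ERD2* was unmarked. Of NLR immune receptor genes 95 of 141 (67.4%, density 649) were marked, between 1048 (*AT1G56520*) and 77.5 (*AT5G05400*).

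Large families split further. Cytochrome P450 genes were marked in 105 of 234 cases (44.9%, density 524), with 47.6% of these in the sparsest quintile. *CYP71B28* had 1189 and *CYP711A1*, which acts in strigolactone synthesis, 118. Of the 129 unmarked P450 genes, *CYP78A8* included, 91 carried H3K27me3. F-box genes, which encode the substrate-binding part of SCF ubiquitin ligases, were marked in only 166 of 653 cases (25.4%), but at a median density of 728 that was close to all marked genes. *AT1G76920* reached 1347, *AT3G17280* had 76.6, and 361 of the 487 unmarked genes carried H3K27me3, *AT1G05080* among them.

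Genes of flowers, seeds, pollen and ovules were hardly marked. Of flower and meristem regulators 3 of 24 (12.5%) were marked. These were the MADS-box genes *SEP4* (533) and *AGL8* (440) and the homeobox gene *KNAT6* (293). *AGL8* is not one of the extremes and was added after its value was seen. Of the 21 unmarked, 20 carried H3K27me3, *SEP3* for instance. Of 19 seed storage and embryo genes 0 were marked, with an upper Wilson limit of 16.8%, and all 19 carried H3K27me3, *CRU2* among them. Defensin-like genes, many of them known from pollen and ovules, were marked in 3 of 188 cases (1.60%). *AT4G21720* (818) shared its domain with *NRPB2*, *LCR68* had 276, and *AT1G13605* was unmarked. H3K27me3 was on 72 of the 185 unmarked defensin-like genes. Of S-protein homologues 2 of 69 (2.90%) were marked, *AT1G60995* (1032) and *AT2G24870* (167), and *AT1G04645* was not. H3K27me3 was on 36 of the 67 unmarked, so in these 2 lists its share was not above the 54.3% of all unmarked genes. The genes of both lists are short, with median lengths of 542 and 553 bp. Of the shortest quintile of all protein-coding genes, up to 1146 bp, 25.9% were marked. The part of gene length in the low shares was not tested.

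The letters of the printed promoters were then counted in the 250 bp before every protein-coding start, on both strands. The site II element TGGGCC was in 18.3% of marked and 6.21% of unmarked promoters, and in 13.7% of all. From the sparsest to the densest quintile of marked genes its share was 11.9, 19.4, 20.8, 21.6 and 17.9%, so the densest quintile did not have the most. The related TGGGCT was in 15.6% of marked and 7.05% of unmarked promoters (12.3% of all). Where TGGGCC occurred, the copy nearest to the start lay at a median of 68 bp before marked and 126 bp before unmarked starts. Lists that were nearly all marked differed in it, with TGGGCC in 46.0% of ribosomal protein and 36.7% of proteasome promoters but in 7 of the 50 photosynthesis promoters. In *EMB3113* it lay 82 bp before the start, and in *AL2* copies lay 115, 73 and 49 bp before it.

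Other letters differed less or the opposite way. TATAAA was in 45.0% of marked and 51.1% of unmarked promoters (47.3% of all), and in 55.9% of unmarked promoters whose gene start carried H3K27me3. *ASPG1* has one 53 bp before its start. The telo box AAACCCTA was in 3.83% of marked and 5.54% of unmarked promoters (4.49% of all), and in 15.8% of ribosomal protein promoters and 20.4% of F-box promoters, although F-box genes were mostly unmarked. The G-box CACGTG was in 7.45% of marked and 4.95% of unmarked promoters (6.49% of all). The GC content of the promoters was alike, with a median of 31.6% for marked and 30.8% for unmarked genes. These are shares of letters, and no binding was measured at them.

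The 882 domains without a protein-coding start were sparser, with a median density of 551. Of these, 419 lay only inside or at the end of protein-coding genes, and 294 of the 419 were in genes whose annotated start was not marked. A further 202 touched a gene of a long or other non-coding RNA, 125 a pseudogene, 39 a small nucleolar RNA (snoRNA) gene, 39 a microRNA gene and 1 a tRNA gene, and 57 touched no annotated gene. The 5 densest included a domain at *AT1G60545*, a long non-coding RNA beside the *DRP4B* pseudogene (1254), one at *AT1G25097* and *AT1G25098* (1246), one inside *TIM*, the plastid triosephosphate isomerase gene (1217), one of 400 bp at *AT3G00580* (1208), and one inside *CSY2*, a peroxisomal citrate synthase gene (1202).

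Of annotated genes of all kinds 48.9% were touched in their first 500 bp. Among non-coding genes the share was highest for snoRNA genes, of which 217 of 287 (75.6%) were touched, 103 of them by a domain with no protein-coding start. It was 24.5% for long non-coding RNA genes (854 of 3480), 15.8% for tRNA genes (99 of 625, only 1 by such a domain) and lower for pseudogenes (86 of 3917), while 0 of the 4 rRNA genes were touched. The start of a non-coding gene here is that of its RefSeq entry.

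MicroRNA genes are transcribed by RNA polymerase II, and 84 of 326 (25.8%) were touched by H3K4me3. Of these, 40 genes lay in 39 domains with no protein-coding start, so no annotated coding gene starts in the same domain. Genes of 24 families conserved among plants were touched in 37 of 92 cases (40.2%), and 28 of these had such a domain. Of other families 47 of 234 (20.1%) were touched and 12 had one. Of the 55 untouched conserved genes 43 carried H3K27me3, against 70.7% of all conserved genes. Of the 187 untouched genes of other families 65 did, against 29.1% of all genes of other families. Over all microRNA genes the share was 40.8%. The entry of a microRNA gene is its hairpin and not its primary transcript, and in 39 of the 40 genes the domain began before the hairpin, by a median of 265 bp. These genes were chosen after their values had been seen.

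Several genes give rise to the same mature microRNA, and their domains differed. The mature sequences of these families, from RefSeq, are printed with the seed (bases 2 to 8) in capitals, since the members of a line share all bases of it.
ath-miR168a-5p (MIR168a, MIR168b): uCGCUUGGugcaggucgggaa
ath-miR156c-5p (MIR156c, MIR156a, MIR156b): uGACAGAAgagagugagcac
ath-miR166a-3p (MIR166a, MIR166e): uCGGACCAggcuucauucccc
ath-miR160a-5p (MIR160a, MIR160c): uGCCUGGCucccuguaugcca
ath-miR393b-5p (MIR393b, MIR393a): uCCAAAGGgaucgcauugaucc
ath-miR172b-3p (MIR172b, MIR172a): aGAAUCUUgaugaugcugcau
ath-miR171c-3p (MIR171c, MIR171b): uUGAGCCGugccaauaucacg

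*MIR168a* (chr4:10578635-10578772, plus strand) had the densest of all 39 domains, at 1051, and *MIR168b* (chr5:18358788-18358911, minus) had 630, a ratio of 1.67. Their product guides cleavage of the mRNA of AGO1, the main Argonaute protein. Of the miR156 genes, whose product represses SPL factors in juvenile plants, *MIR156c* had 844, *MIR156a* 564 and *MIR156b* 321. *MIR166a* had 751 and *MIR166e* 400, and miR166 acts on HD-ZIP III mRNAs. Among families that act on auxin signalling, *MIR160a* had 494 and *MIR160c* 261, and *MIR393b* had 402 and *MIR393a* 196. *MIR172b*, of a family that represses AP2-like factors, had 515 and *MIR172a* 203. *MIR171c* and *MIR171b* were alike at 210 and 205. *MIR172b* also shares its other mature strand with *MIR172e* (128), and *MIR5595a* and *MIR5995b*, which share a mature sequence too, lie in 1 domain (578). So in 6 of the 7 printed sets the densest member exceeded the sparsest by 1.67-fold or more, with 1 merged value for each. Over all domains 25 to 75% of densities lay between 529 and 926, and whether the sets differ more than other domains was not tested. The sets hold only genes in domains with no protein-coding start. Left out are family members such as *MIR156d* (847) and *MIR166b* (748), whose domains hold such a start, and the untouched *MIR156e*.

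A pair whose sequences differ at the last base, but which share the seed, is also known for acting on GAMYB-like mRNAs. *MIR159a* had 962 and *MIR159b* 727.
ath-miR159a: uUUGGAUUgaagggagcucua
ath-miR159b-3p: uUUGGAUUgaagggagcucuu

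**Figure D5:**
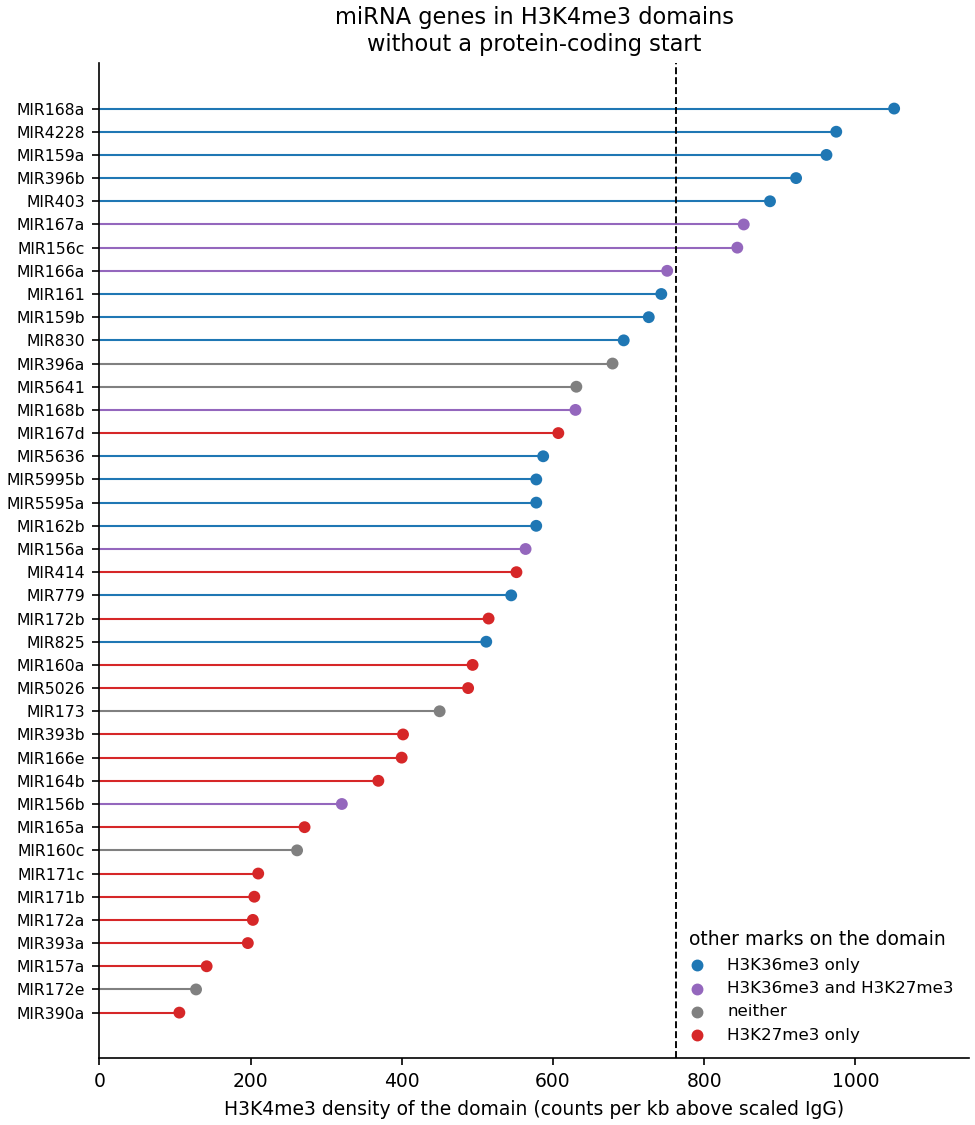
H3K4me3 density (horizontal axis, counts per kb above scaled IgG) of the domain at each of 40 microRNA genes (rows) in a domain without a protein-coding start. Colours give the other marks on the domain, and the dashed line is the median of all marked protein-coding genes (763). Genes with H3K36me3 only fill most of the upper rows, from 512 to 1051, and genes with H3K27me3 only lie lower, from 106 to 607.

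The 14 microRNA genes with H3K36me3 only had densities of 512 to 1051, the 6 with both marks 321 to 852, the 15 with H3K27me3 only 106 to 607 and the 5 with neither 128 to 679, so the classes overlap. *MIR390a*, whose product triggers tasiRNAs from *TAS3*, was lowest at 106. No member was touched in family MIR169 (14 genes, 11 with H3K27me3 at the start), in families MIR395 and MIR399 (6 genes each), which are known to be induced by lack of sulphate and of phosphate, or in families MIR319, MIR394 and MIR397.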

How the data were processed

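PHILO ChIP-seq was made from untreated 10-day-old Col-0 seedlings. By the study's methods and the submitters' notes, Bowtie2 2.4.1 was used by the authors for alignment to TAIR10 and epic2 0.0.52 for histone domains (listed as SICER in the notes), on 3 merged replicates against IgG. The H3K9ac lists used here were called by library. Duplicate handling is not given in the sources used here. The deposited lists give whole-number counts of the mark and of IgG per domain, not normalized, with the FDR and the log2 fold that the authors' caller computed over scaled control. MYC2 summits were deposited with −log10 q-values from the authors' MACS2 2.2.7.1 run, and only their positions were used. The H3K4me3 counts in domains show the depth given in the text, and counting error is then small beside differences between genes.

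Density was the H3K4me3 count minus the IgG count times the recovered ratio of totals, per kb. Genes, families and 250 bp promoters came from RefSeq TAIR10.1 (nuclear chromosomes as in TAIR10), and a protein-coding gene was marked where a domain covered any of its first 500 bp. Overlap needed 1 bp. Gene lists were drawn from RefSeq symbols and product names. They may hold organellar homologues and misannotated members, and may miss members named otherwise. The members and lists were chosen with earlier results of these data known. Named items were the 10 densest and 10 widest domains, the 5 with the lowest log2 fold among those with a marked start, the 5 densest without a start, all members of the H3K4 lists, and the extremes and the first unmarked member of each other list. A few items that this rule covers are not reported here. Other members, the antenna, histone, jasmonate and microRNA genes among them, were added after their values were seen. Library values were compared by exact permutation. On simulated lists with known answers, overlaps and gene assignments failed in 0 of 378750 checks. Alternatives changed the window, log2 fold, width, FDR, overlap, background, quintile and libraries. Python 3.11.15, numpy 2.4.6, pandas 2.3.3, scipy 1.17.1 and matplotlib 3.10.9 were used. The merged PHILO H3K9ac list, the MYC2 peak table and the H3K4me3 libraries of the JA time course were not analysed here.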

Additional observations from a re-analysis of the deposited data

How the results depend on the processing

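The number of marked genes was 16862 and lay between 15900 and 17429 under cover of 50% of the first 500 bp, any overlap with the gene, a log2 fold of at least 1, a width of at least 400 bp and an FDR of at most 1e-10. The share of domain edges within 200 bp of a start was 86.9% and became 88.7% for domains touching exactly 1 gene of any kind. H3K27me3 on the sparsest quintile was 34.2%, and 32.4% with quintiles by log2 fold. The density ratio of the densest to the sparsest quintile was 3.64, and became 2.82 without subtraction of IgG and 4.90 with counts raised for positions already taken, an alternative chosen after seeing the data. The H3K36me3 share of domains was 82.7%, and 80.2% where the other mark had to cover 50% of the domain and 79.9% with a log2 fold of at least 1. The H3K27me3 share was 10.6%, and under the same alternatives 9.06% and 8.86%. TGGGCC in the densest quintile was at 17.9%, and at 12.9% in 100 bp. The H3K9ac share differed by 2.63 percentage points between PHILO and regular ChIP-seq, by 2.28 to 2.83 when each library was left out in turn, and by 10.6 with a log2 fold of at least 1 for H3K9ac. The H3K9ac log2 difference between quintiles was 0.70, and 0.68 to 0.73 when each library was left out. With the replicate number as a replicate block these were 2.77 and 0.68 (p = 0.5 each by exact permutation over 2 pairs). The labels do not tie equal numbers together, and deviations of same-numbered libraries from their group means correlated at 0.0091 and 0.015 over 14491 domains. Of 55 alternatives, 45 stayed within the limits set for them, 10 moved and none reversed. These limits were wide. Counts could change by 1.5 times, and 20 of the 45 are counts of gene lists. Shares had to stay within the Wilson interval, and the other density ratios were counted as moved without a limit. The H3K9ac differences could only reverse, as no p could pass the threshold, so the rise to 10.6 was counted as unmoved. By any overlap the count of marked members was higher in 8 of the 21 gene lists, among them NLR genes (105, against 95 by the first 500 bp) and cytochrome P450 genes (118, against 105), and by more than 1.5 times in 1 of them, the seed list (1 gene, against 0).

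Since the 3 H3K4me3 replicates were merged before calling, the list carries no spread between them, and densities of single genes carry counting error only. The list has a lower limit set by the caller, so an unmarked gene is one below it and not one without the mark. Starts are those of RefSeq, and reads shared by near-identical genes were not followed.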
